A study of Homo sapiens with 5 samples.

Results

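The DLX-positive neurons without GNRH1 were single cells of a human GnRH neuron culture that expressed the DLX genes and had little or no GNRH1 transcript. They were chosen by measured values: a barcode of day 24 (D24) or day 26 (D26) was a member when it held at least 1500 unique molecular identifiers (UMIs), at least 1000 genes and under 20% mitochondrial UMIs, at least 3 UMIs summed over DLX1, DLX2, DLX5, DLX6 and DLX6-AS1, and GNRH1 below 500 CPM, that is, counts per 1000000 of its own UMIs. This gave 141 cells at D24 and 548 at D26, in all 689 of the 20170 cells that passed the first 3 limits on the 2 days. The 3 libraries of D22, D24 and D26 together held 31900 barcodes. Because GNRH1 and the DLX genes selected the cells, their levels are given as a description of the choice, and no statement rests on them.

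DLX1, DLX2, DLX5 and DLX6 are homeodomain transcription factors of the ventral forebrain. They act in the progenitors and young neurons of the ganglionic eminences, where they promote the GABAergic fate, and DLX6-AS1 is a long noncoding RNA transcribed from the DLX5 and DLX6 locus. GNRH1 encodes the precursor of gonadotropin-releasing hormone, the decapeptide that drives the pituitary gonadotrophs. GABA is one of the main signals that act on developing GnRH neurons.

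The culture was WA09, an established human embryonic stem cell line of wild type genotype. All 3 libraries received the same agents: dorsomorphin and SB431542, which inhibit BMP and activin/TGF-beta signalling, for neural induction, then FGF8, and from D21 the Notch pathway inhibitor DAPT, with a freeze and thaw at day 17. XAV939, a Wnt inhibitor used elsewhere in the study, was not part of these libraries. Each day was 1 library of 10x Genomics 3′ chemistry with no replicate, so day and library cannot be told apart, and no p-value is given. The culture is 1 cell line, and nothing in the labels limits the cells to neurons.

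The D24 and D26 libraries held 71397909 and 100865176 UMIs. Members had a median of 8091 UMIs per cell at D24 and 9040 at D26, against 8418 and 9851 in GNRH1-high DLX-positive neurons (DLX sum of at least 3 and GNRH1 of at least 3000 CPM; 275 and 847 cells) and 7121.5 and 8336.5 in cells with 0 DLX UMIs (8482 and 9014 cells, here DLX-zero). Levels of a class, also in CPM, are UMIs summed over its cells and scaled to the summed total, which was 1207625 UMIs for members at D24 and 5690924 at D26. Intervals are exact 95% Poisson or binomial intervals and cover counting error only, since cells of 1 library are not replicates. The libraries shared 27 to 37 barcodes pairwise, and 0 members were shared.

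Members made up 1.55% (95% interval, 1.30 to 1.82) of the D24 cells and 4.95% (4.56 to 5.38) of the D26 cells. Of the DLX-positive cells they were 30.7% (26.5 to 35.1) at D24 and 33.5% (31.2 to 35.9) at D26. The share among all cells was higher at D26, while the intervals of the share among DLX-positive cells overlapped. Another 44 cells at D24 and 239 at D26 lay between the 2 GNRH1 limits and entered neither class.

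Of the members, 107 at D24 (75.9%) and 251 at D26 (45.8%) had no GNRH1 UMI at all. Their summed GNRH1 level was 49.7 CPM at D24 and 108 CPM at D26, against 26083 and 30964 CPM in the GNRH1-high neurons. DLX-zero cells under the same GNRH1 limit stood at 14.9 and 53.7 CPM, and 9.58% and 34.2% of them had a GNRH1 UMI, compared with 24.1% and 54.2% of members. A few GNRH1 UMIs were thus found in all classes, at a higher share in members than in DLX-zero cells of slightly lower median depth. Just inside the limit, the highest member had 475 CPM at D24 (3 UMIs) and 497 at D26 (6 UMIs). Just outside it stood cells of 502 and 503 CPM, the first with 2 UMIs only.

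**Figure D1:**
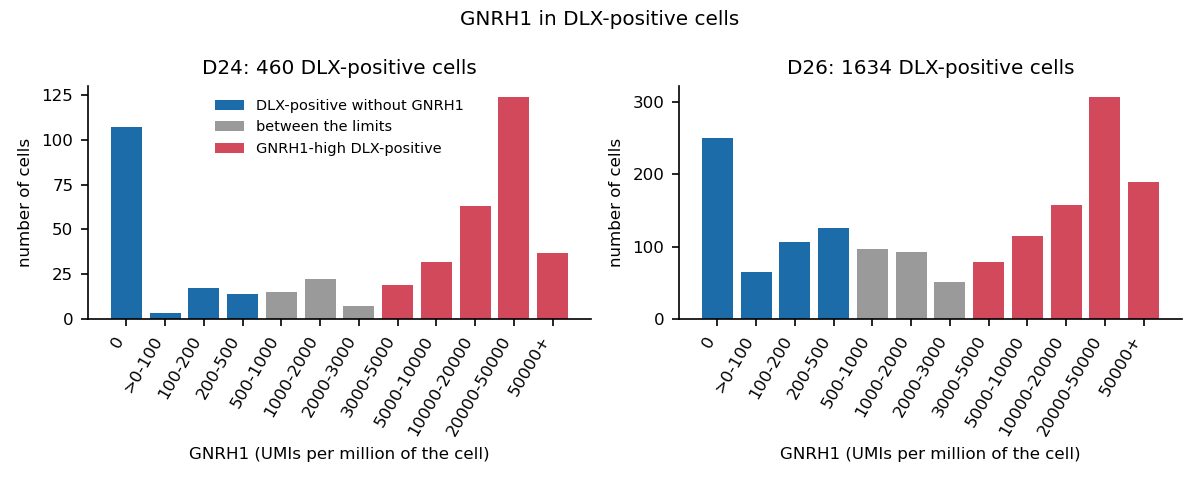
Number of DLX-positive cells (y axis) by GNRH1 level in CPM of the cell (x axis, unequal bins) at D24 and D26, with the bars of members, of cells between the limits and of GNRH1-high neurons in separate colours. At D24 107 of 460 cells had 0 GNRH1 UMIs and 124 lay in the second highest bin; at D26 these were 251 and 307 of 1634.

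Members had a median of 9 summed DLX UMIs at D24 and 11 at D26, against 7 and 10 in GNRH1-high neurons. At the DLX limit, 15 members at D24 and 37 at D26 had exactly 3 UMIs, and 23 and 52 cells under the GNRH1 limit were left out with 2. DLX5 stood at 340 and 331 CPM in members and at 250 and 268 CPM in GNRH1-high neurons. These values follow from the choice of cells.

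The label was checked with GAD2 and SLC32A1, which the choice did not use. GAD2, a glutamate decarboxylase that makes GABA, reached 330 CPM at D24 and 266 CPM at D26 in members and 2.06 and 1.47 CPM in DLX-zero cells. SLC32A1, the vesicular GABA transporter, stood at 46.4 and 61.3 CPM against 0.387 and 0.279 CPM. A GAD2 UMI was found in 82.3% and 74.3% of members and in 1.08% and 0.998% of DLX-zero cells. For SLC32A1 the shares were lower, at 31.2% and 44.3% of members and 0.236% and 0.233% of DLX-zero cells. STMN2, a microtubule regulator of growing neurons, was detected in 100% of members on both days, at 6988 and 7168 CPM. No DLX-zero level is set beside STMN2, so it does not set members apart from those cells. By the summed levels of GAD2 and SLC32A1 the label held on both days. Its part without GNRH1 was not checked, because GNRH1 selected the cells.

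Against DLX-zero cells, 52 of 2806 genes (1.85%) were at least 2-fold higher in members at D24 and 110 (3.92%) at least 2-fold lower. At D26 these were 52 of 3384 genes (1.54%) and 88 (2.6%). A gene entered where 1 of the 2 classes reached 50 CPM and over 3 UMIs, and the genes of the selection were left out. The median log2 ratio over all genes was -0.09 at D24 and -0.06 at D26. On both days 33 genes were higher and 44 lower.

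GAD2 and SCGN were among the genes that stood highest over DLX-zero cells on both days. GAD2 led by the smaller ratio of the 2 days, with log2 ratios of 7.32 and 7.50. SCGN, which encodes the calcium sensor secretagogin, followed with log2 ratios of 8.06 and 7.21, at 95.2 and 135 CPM against 0.356 and 0.914 CPM. Of a list of 15 interneuron and calcium-binding markers, only 3 genes passed the floor at D24 and 5 at D26, so most were not compared. SCGN and TAC1 were 2-fold higher on each day. RELN was 2-fold lower at D24, and CALB1, CALB2 and RELN were 2-fold lower at D26. SCGN and TAC1 passed the floor through members alone on both days, and CALB1 and CALB2 through DLX-zero cells alone. The directions of these calls were thus fixed in part by the floor. At D26 the calbindin gene CALB1 was at 31.3 against 62.8 CPM, the calretinin gene CALB2 at 12.1 against 62.3 CPM and RELN at 72.0 against 219 CPM. ISL1, a LIM homeodomain factor of striatal and motor neurons, was at 104 and 82.8 CPM against 2.07 and 4.09 CPM. Other leading genes were C11orf96, MEF2C, LINC01833, RALYL, NR2F2, VCAN, TAC1 and SIX3, with log2 ratios between 2.23 and 5.96 over the 2 days. SIX3, a homeodomain factor of the anterior forebrain, was at 433 and 499 CPM against 74.1 and 106 CPM. Of these genes, SCGN, ISL1 and TAC1 were not particular to members, while NR2F2 was higher in members than in GNRH1-high neurons, as given below. Over groups of GNRH1-high neurons by GNRH1 level, SCGN was at 54.2 to 77.2 CPM at D24 and 178 to 341 CPM at D26. ISL1 was at 93.8 to 140 and 92.0 to 160 CPM in these groups, and TAC1 at 50.3 to 83.2 and 133 to 262 CPM.

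The genes that stood lowest included markers of the glutamatergic neurons of the same culture. LHX1 and LHX9, LIM homeodomain factors, were at 29.0 and 35.6 CPM in members at D24 against 218 and 179 CPM in DLX-zero cells. SLC17A6, the vesicular glutamate transporter, was at 9.94 and 15.1 CPM against 71.6 and 70.2 CPM. PPP1R17, a protein phosphatase regulator, was at 39.7 and 96.8 CPM against 320 and 467 CPM. Of the 15 genes listed for this lineage of the culture, 10 reached 50 CPM in 1 of the 2 classes at D24 and 10 at D26. All of these were at least 2-fold lower in members, with median log2 ratios of -2.71 and -2.25 beside -0.09 and -0.06 over all genes. Genes that passed the level through DLX-zero cells alone included LHX1, LHX9 and SLC17A6 on both days, and PPP1R17, SAMD3 and TBR1 at D24. The list was made for this culture with earlier results known, so the count was fixed in part and only describes the list. MGAT4C, SAMD3, EMX2, NRN1, KLHL4, EMX2OS, CDH18 and RORB were the other leading genes in this direction.

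The comparison with GNRH1-high DLX-positive neurons asks which transcripts other than GNRH1 set these neighbours apart. At D24, 13 of 2619 genes (0.496%) were at least 2-fold higher in members and 12 (0.458%) at least 2-fold lower. At D26, 3 of 3208 genes (0.0935%) were higher and 5 (0.156%) lower. These totals of 25 and 8 moved with the limits, to 45 and 21 for members with GNRH1 at 0 UMIs, to 42 at D24 with at least 6 DLX UMIs, to 40 at D24 without the clusters of mostly high doublet scores and to 13 at D26 in cells of 5000 to 15000 UMIs. The median log2 ratio was 0.01 on both days. Of the 2513 genes that reached 50 CPM on both days, 2494 were within 2-fold on both, and 4 were 2-fold apart in the same direction on both: NR2F2 and NR2F1, which were higher in members, and SEMA3C and FGF3, which were lower. FGF3 was short of 2-fold at D26 when every cell weighed the same, with a log2 ratio of -0.93, and with at least 6 DLX UMIs, at -0.97.

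NR2F2 (COUP-TFII) is an orphan nuclear receptor that marks the caudal ganglionic eminence and its migrating interneurons. It stood at 91.9 CPM in members and 4.77 CPM in GNRH1-high neurons at D24, a log2 ratio of 4.27 (95% interval, 3.41 to 5.26). At D26 it stood at 156 and 17.5 CPM, a log2 ratio of 3.16 (2.92 to 3.41). DLX-zero cells held 10.8 and 9.13 CPM, so GNRH1-high neurons lay below these cells at D24 and above them at D26, and members lay above both on each day. Thinned to 1500 UMIs each, 13.5% of members and 0.727% of GNRH1-high neurons had an NR2F2 UMI at D24, and 17.2% and 2.13% at D26. No single cell carried the difference, since the cell with most NR2F2 UMIs held 7.21% of the members' NR2F2 UMIs at D24 and 1.91% at D26.

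NR2F1 (COUP-TFI) is its close paralogue and patterns the cortex along the front to back axis. The paper also lists it for a cell cluster marked by Iroquois homeobox genes. It stood at 118 CPM in members and 7.55 CPM in GNRH1-high neurons at D24, a log2 ratio of 3.96 (3.26 to 4.73). At D26 the levels were 86.8 and 17.7 CPM, a log2 ratio of 2.29 (2.04 to 2.56). In DLX-zero cells NR2F1 stood at 24.8 and 49.1 CPM, above the GNRH1-high neurons on both days, with a UMI in 806 of 8482 and 1983 of 9014 of them.

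FGF3 and FGF19 encode secreted fibroblast growth factors. FGF3 stood at 21.5 CPM in members and 80.7 CPM in GNRH1-high neurons at D24, a log2 ratio of -1.91 (-2.55 to -1.31), and at 53.6 and 112 CPM at D26, a log2 ratio of -1.06 (-1.25 to -0.88). FGF19 had a log2 ratio of -2.14 at D24, from 34.0 and 150 CPM, and of -0.97 at D26, from 49.0 and 96.2 CPM, just short of 2-fold. Both were near 0 in DLX-zero cells, at 0.216 to 0.526 CPM on the 2 days. They were therefore genes of the DLX-positive neurons that were lower in those without GNRH1 and found in part of them. FGF3 was found in 17 of 141 members at D24, where 3 cells held 46.2% of its UMIs, and in 120 of 548 at D26.

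SEMA3C, a secreted guidance cue of the semaphorin family, stood at 24.8 CPM in members and 60.8 CPM in GNRH1-high neurons at D24, a log2 ratio of -1.29 (-1.91 to -0.72). At D26 it stood at 35.5 and 93.7 CPM, a log2 ratio of -1.40 (-1.63 to -1.18). A SEMA3C UMI was found in 13.5% and 20.3% of members, in 38.5% and 51.8% of GNRH1-high neurons and in under 1% of DLX-zero cells (0.283% and 0.81%). After thinning to 1500 UMIs the shares were 6.38% and 7.64% at D24, which lie close together, and 5.84% and 12.4% at D26.

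**Figure D2:**
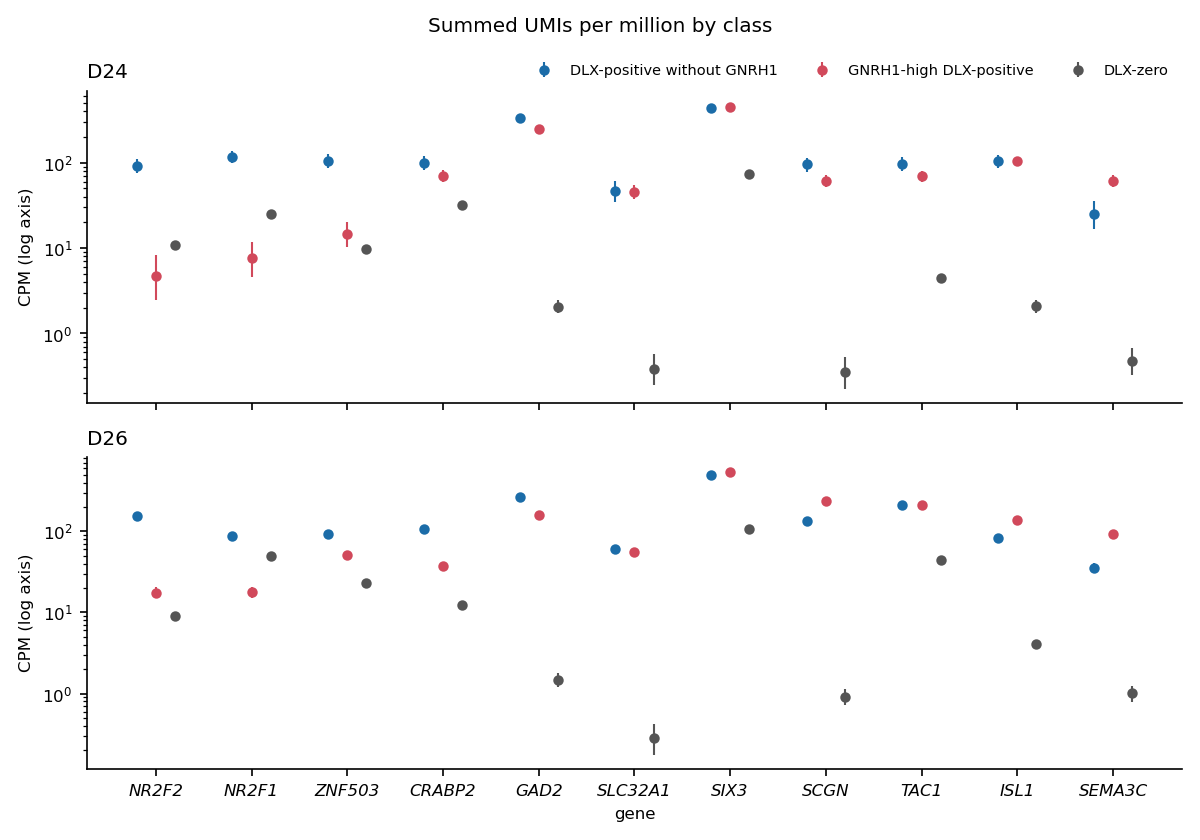
Summed UMIs in CPM (y axis, log scale) of 11 genes (x axis) in members, GNRH1-high DLX-positive neurons and DLX-zero cells at D24 (top) and D26 (bottom); points are levels of 1 library and bars exact 95% Poisson intervals. NR2F2 stood at 91.9 and 156 CPM in members against 4.77 and 17.5 CPM in GNRH1-high neurons, while SIX3 differed little between these classes (433 and 445 CPM at D24).

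Several genes passed 2-fold on 1 day only, and those named here were chosen after their values were seen. At D24, MEF2C, a MADS-box factor of neuronal differentiation, was at 53.8 CPM in members and 163 CPM in GNRH1-high neurons, and at D26 at 89.4 and 173 CPM (log2 ratios of -1.60 and -0.95). ZNF503, a zinc finger factor of the developing striatum, was at 105 and 14.7 CPM at D24 and at 91.7 and 51.6 CPM at D26 (2.84 and 0.83). These 2 genes kept their direction and lost size between the libraries. RASD1, a Ras-related protein, did not keep it: its log2 ratio was -1.18 at D24 and 0.05 at D26. DSEL, an epimerase-like enzyme of dermatan sulfate synthesis, went from 1.67 at D24 to -0.28 at D26, and POU3F2 (BRN2), a POU factor of newborn neurons, from 1.18 to 0.04. The other genes lower in members at D24 and within 2-fold at D26 were SYBU, TSTD1, ECEL1, ZIC1, NOS1AP and SLC8A1, with D24 log2 ratios from -1.61 to -1.01. TMEM47, MIR7-3HG and SMIM20 were higher at D24, at 1.29, 1.16 and 1.01, and within 2-fold at D26. AJAP1 and UTRN were lower at D26, at -1.62 and -1.15, and within 2-fold at D24.

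NEFL, the neurofilament light chain of maturing axons, was at 706 CPM in members and 1022 CPM in GNRH1-high neurons at D24, and at 515 and 1047 CPM at D26 (log2 ratios of -0.53 and -1.02). CRABP2, a retinoic acid-binding protein, was at 99.4 and 69.9 CPM at D24 and at 107 and 37.1 CPM at D26 (0.51 and 1.52). PCP4, a calmodulin-binding peptide, and GNG5, a G protein gamma subunit, were over 2-fold higher in members at D24 (157 against 53.7 CPM, and 296 against 127 CPM). At D26 both ratios stayed above 2-fold (log2 1.65 and 1.78) but with levels under 50 CPM, at 25.7 and 49.7 CPM in members, so they did not enter the count. The same held for CD99, a cell surface glycoprotein, with log2 ratios of 3.53 at D24 (50.5 against 4.37 CPM) and 3.57 at D26 (6.50 against 0.546 CPM). It also held for CRABP1, at 1.72 and 1.11, and in the other direction for CDH6, a cadherin, at -1.62 and -1.45.

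**Figure D3:**
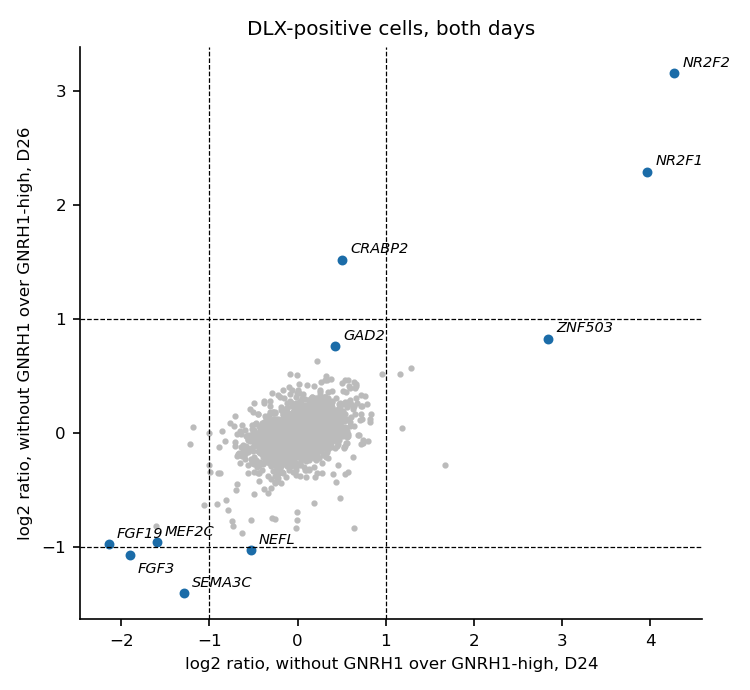
Log2 ratio of members over GNRH1-high DLX-positive neurons for each of 2513 genes at D24 (x axis) and D26 (y axis); dashed lines mark 2-fold, and blue points are named genes. NR2F2 (4.27 and 3.16) and NR2F1 (3.96 and 2.29) stood apart at the upper right, and 2494 genes lay inside the lines on both days.

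Levels were also taken along GNRH1. The bins rest on GNRH1, which chose the classes, and the genes followed here were taken up for their difference between them, so the values describe that difference further and do not add support to it. At D26, NR2F2 went from 188 CPM in the 251 DLX-positive cells with no GNRH1 UMI to 134 CPM in the 297 other members, 66.1 CPM between the limits, 28.0 CPM at GNRH1 of 3000 to 10000 CPM, 20.7 CPM at 10000 to 30000 and 9.28 CPM above. GAD2 went from 285 CPM to 253, 184, 152, 147 and 168 CPM over the same bins. NEFL ran the other way, from 481 CPM in cells with no GNRH1 UMI to 1234 CPM in those above 30000, and was higher at each step. SEMA3C was likewise higher at each step, from 33.2 to 103 CPM, and NR2F1 and CRABP2 were lower at each step, from 109 to 10.8 CPM and from 121 to 22.9 CPM.

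At D24 the bins held 34 to 126 cells and were less smooth. NR2F2 was at 105 and 53.2 CPM in the 2 bins of members and at 1.21 to 14.4 CPM in the 4 bins above the GNRH1 limit of 500. NR2F1 was at 141 and 46.5 CPM in members and at 7.08 to 9.77 CPM above. FGF19 was higher at each step, from 28.7 CPM to 178 CPM, and FGF3 from 19.8 to 101 CPM. A steady order across all 6 bins was thus seen for FGF3 and FGF19 at D24 and for NR2F2, NR2F1, CRABP2, SEMA3C and NEFL at D26. It was not seen for NR2F2 at D24, nor at D26 for FGF3, at 98.9 CPM in the third bin, 67.6 CPM in the fifth and 158 CPM in the last, or FGF19, at 78.8, 66.0 and 131 CPM in the same bins. STMN2, the general neuron marker, was also higher at each step of D26, from 6971 to 8276 CPM. GNRH1 UMIs are part of each cell's total, and with GNRH1 left out of every total the log2 ratio of NR2F2 over GNRH1-high neurons was 4.23 at D24 and 3.11 at D26.

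**Figure D4:**
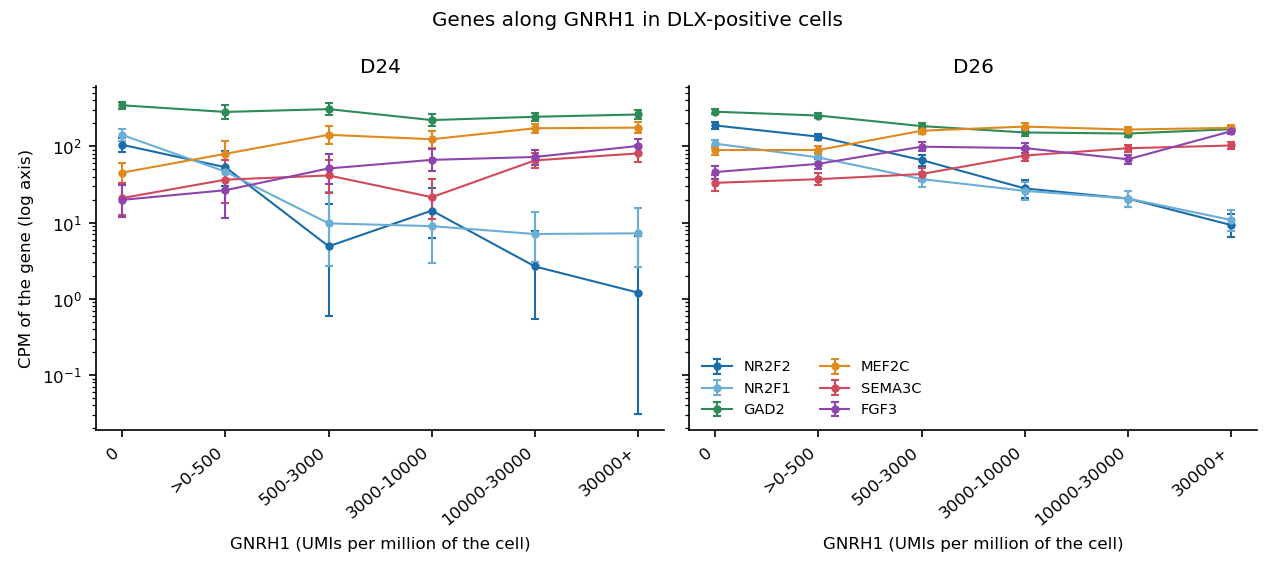
Summed UMIs in CPM (y axis, log scale) of 6 genes in DLX-positive cells grouped by GNRH1 in CPM of the cell (x axis) at D24 and D26; bars are exact 95% Poisson intervals. NR2F2 went from 188 down to 9.28 CPM over the 6 bins of D26, and SEMA3C from 33.2 up to 103 CPM.

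Members were not uniform in these genes. An NR2F2 UMI was found in 54 of 141 members at D24 (38.3%) and 187 of 548 at D26 (34.1%), compared with 2.91% and 7.67% of GNRH1-high neurons and 5.23% and 2.96% of DLX-zero cells. NR2F1 was found in 62 members at D24 and 169 at D26 (30.8%). Both were found in 33 members at D24 (23.4%) and 125 at D26 (22.8%), where the product of the 2 shares is 16.8% and 10.5%, and either in 58.9% and 42.2%. FGF3 and FGF19 were found together in 72 members at D26, with FGF3 in 120 and FGF19 in 122. SCGN and NR2F2 shared 29 of 548 members at D26 (5.29%), below the product of their shares of 10.3%, while at D24 they shared 18 of 141 (12.8%) with a product of 10.6%. The NR2F2 cells and the SCGN cells of D26 were thus largely not the same members, although in sparse counts a cell with no UMI can still express a gene.

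DLX-positive cells of both days were clustered without the genes of the selection and without the 29 genes that were 2-fold apart on either day, so that cluster shares could be set beside each other. Leaving those genes out takes away what separates the classes most, so the shares show only how the classes spread by the other genes. When the 29 genes were kept, a further cluster of 121 cells led by NR2F2, NR2F1 and CRABP2 stood out, and since these genes set the classes apart, its shares are not compared. At D24, 83.7% (76.5 to 89.4) of members and 85.1% (80.3 to 89.1) of GNRH1-high neurons fell in 1 cluster led by CLIC1, IGFBP5 and TOP2A. TOP2A is not read as division of these cells: D24 members held 1 TOP2A UMI, and 1 cell held 95.5% of the 88 of D26 members. At D26, 43.1% of members and 49.8% of GNRH1-high neurons fell in a cluster led by SCGN, PPP2R2B and PRKCB, and 31.8% and 31.5% in one led by TAC1, MEIS2 and NKAIN3. A cluster led by GABRA2, MGAT4C and SAMD3 took 20.6% and 17.0%. The intervals of the classes overlapped in each of these. The CLIC1 cluster at D26 was the exception, with 3.28% (1.96 to 5.14) of members and 0.472% (0.129 to 1.20) of GNRH1-high neurons. No cluster was given a cell type name.

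**Figure D5:**
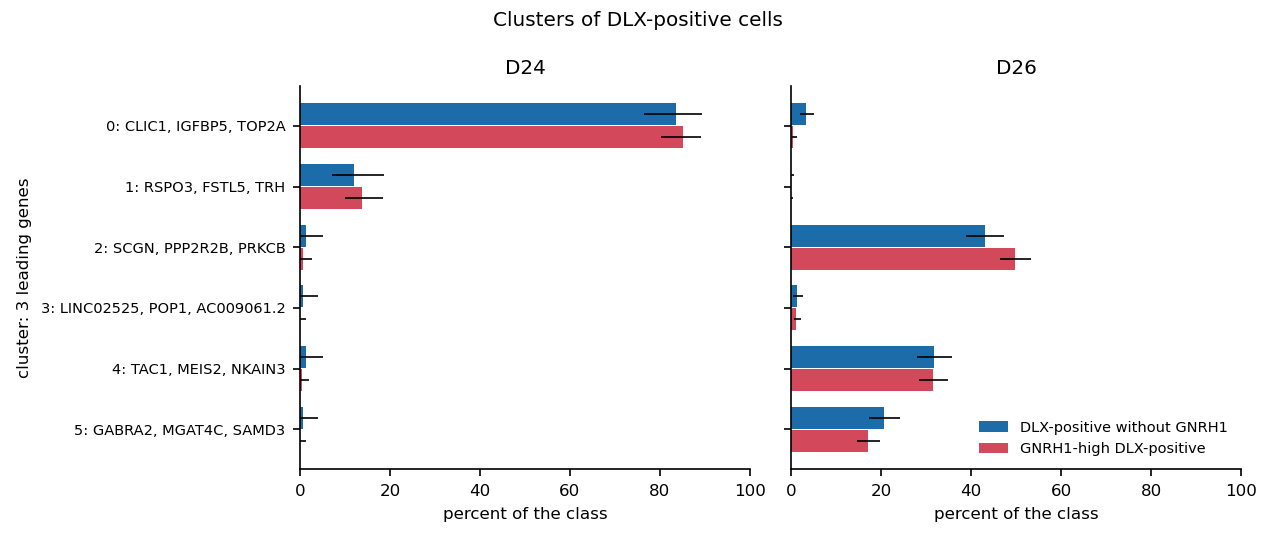
Percent of members and of GNRH1-high DLX-positive neurons (x axis) in each of 6 clusters of DLX-positive cells (y axis, number and 3 leading genes) at D24 and D26; bars are shares of 1 library with exact 95% binomial intervals. At D26 the TAC1 cluster held 31.8% of members and 31.5% of GNRH1-high neurons.

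High doublet scores, the mark of barcodes that may hold more than 1 cell, gathered in 2 of the clusters. In the GABRA2 cluster 73.5% of the cells had a doublet score of at least 0.25, with a median of 17002.5 UMIs, and in a D24 cluster led by RSPO3, FSTL5 and TRH, which held 12.1% of the D24 members, 65.6% had one. TBR1, a T-box factor of glutamatergic neurons, stood at 195 CPM in the members of the GABRA2 cluster and at 7.02 and 7.55 CPM in those of the SCGN and TAC1 clusters. Over all members, 12.1% at D24 and 15.9% at D26 had a high doublet score, against 9.45% and 13.0% of GNRH1-high neurons and 6.59% and 6.73% of DLX-zero cells. Without the clusters of mostly high doublet scores, a setting chosen after seeing the data, the log2 ratio of NR2F2 was 4.46 at D24 and 3.41 at D26.

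The summed NR2F2 level was higher in members inside each of the 4 large clusters. In the D24 cluster it stood at 105 CPM (85.0 to 128) in members and 4.62 CPM (2.11 to 8.77) in GNRH1-high neurons. At D26 it stood at 31.3 (23.8 to 40.5) and 9.53 CPM (6.68 to 13.2) in the SCGN cluster, at 408 (378 to 441) and 30.9 CPM (24.6 to 38.4) in the TAC1 cluster, and at 67.0 (56.1 to 79.4) and 13.2 CPM (9.20 to 18.4) in the GABRA2 cluster. Among members of D26, 69.0% of those in the TAC1 cluster and 6.36% of those in the SCGN cluster had an NR2F2 UMI. In the SCGN cluster 4.50% of GNRH1-high neurons had one, a close share. The difference in level there thus rests on few cells, and the counting intervals do not cover differences between cells. NR2F1 was less even: in the SCGN cluster it stood at 12.4 (7.87 to 18.6) and 7.41 CPM (4.93 to 10.7), with overlapping intervals, while it stood at 136 and 8.22 CPM in the D24 cluster, 203 and 16.2 CPM in the TAC1 cluster and 54.4 and 28.3 CPM in the GABRA2 cluster. SEMA3C was lower in members in all 4, from 23.8 against 106 CPM in the SCGN cluster to 59.1 against 106 CPM in the TAC1 cluster.

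The members of the TAC1 cluster were a mixture. Of its 174 members at D26, 87 were among the 121 cells led by NR2F2 when the 29 genes were kept, and 75 were in a cluster then led by TAC1, which also held 256 of the 267 GNRH1-high neurons. This split was made after seeing the data, and NR2F2, FGF3 and SEMA3C were among the genes that made those clusters, so levels on its sides are a description that the split fixes in part. Within the cluster then led by TAC1, NR2F2 stood at 182 CPM in the 75 members and 23.0 CPM in the 256 GNRH1-high neurons, FGF3 at 8.93 and 91.4 CPM, and SEMA3C at 103 and 109 CPM. The lower SEMA3C of the whole cluster was thus not seen in these 75 members.

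Other genes were set apart in 1 cluster more than another. At D26, 9 of 3227 genes were at least 2-fold higher in members and 16 lower in the SCGN cluster. In the TAC1 cluster these were 19 and 19 of 3169, and in the GABRA2 cluster 2 and 1 of 3352. In the D24 cluster they were 24 and 19 of 2597. These counts rest on fewer cells than those over the whole classes. The genes named here were picked, after their values were seen, from the 10 largest ratios in each direction of 1 cluster. Others with ratios as large are left out. At D26 in the SCGN cluster, members had INSM2, a zinc finger factor of neuroendocrine cells, at 86.9 against 14.8 CPM, and SPRY1, an inhibitor of FGF signalling, at 93.9 against 18.5 CPM. They had RELN, the secreted glycoprotein of layer formation, at 6.48 against 56.9 CPM, and MEIS2, a homeodomain factor of the striatal lineage, at 19.4 against 103 CPM. The same cluster had ISL1 at 35.1 against 97.2 CPM.

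In the TAC1 cluster as a whole, members had S100A10 at 54.1 against 6.41 CPM, the POU factor POU3F1 at 51.0 against 7.54 CPM and the zinc finger factor BCL11B (CTIP2) at 71.1 against 22.3 CPM. In the 75 members and 256 GNRH1-high neurons named above these were at 115 against 6.73, 90.8 against 7.52 and 146 against 23.4 CPM, and in the 87 members among the cells led by NR2F2 at 8.75, 16.2 and 13.7 CPM. Members of the whole cluster had FGF19 at 6.92 against 75.4 CPM, FGF3 at 11.96 against 95.04 CPM and SCGN at 15.1 against 80.7 CPM. In the SCGN cluster the FGF genes were closer, with FGF19 at 100 against 138 CPM and FGF3 at 112 against 158 CPM. The FGF genes were thus further apart between the classes in the TAC1 cluster than in the SCGN cluster of this library, a difference that was not tested. In the GABRA2 cluster the largest ratio was SST, at 69.0 against 1.13 CPM. SST is a case of a few cells: of 204 SST UMIs in D26 members, found in 12 cells, 65.7% came from 1 cell.

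When members were clustered alone, they fell into 5 groups. One of 125 cells, 108 of them from D24, was led by IGFBP5, TOP2A and CENPF. One of 146 cells was led by CLSTN2, NR2F2, CRABP2 and NR2F1, with NTRK2 and SLITRK6 behind them. One of 221 cells was led by RASD1, FGF3 and NKX6-1, and one of 83 cells by TAC1, NKAIN3 and ENC1, with ZNF503, BCL11B, EBF1 and MEIS2 behind them. The last, of 114 cells, was led by TBR1, GABRA2 and SAMD3, and 75.4% of its cells had a high doublet score. Of TOP2A, a topoisomerase of dividing cells, members held 1 UMI at D24 and 88 at D26, and 1 cell held 95.5% of the latter.

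Of the listed genes that reached 50 CPM in 1 of the 2 classes, most lay within 2-fold of GNRH1-high neurons. Many listed genes stayed under that level and were not counted. Of the GABA synthesis and transport genes, 2 reached 50 CPM at D24 and 3 at D26, and 0 were 2-fold apart, although GAD2 was higher at 330 against 245 CPM and 266 against 157 CPM. Of 41 subpallial transcription factors, 13 reached the level at D24 and 14 at D26, and ZNF503, NR2F1 and NR2F2 at D24 and the NR2F genes at D26 were the ones higher, with 0 lower. SIX3 stayed within 2-fold, at 433 against 445 CPM at D24. NKX2-1, LHX6 and LHX8, which mark the medial ganglionic eminence and its interneurons, were rare in members. SST, listed with them, came from few cells, as given above. SOX6, also listed with them, was not rare. It stood at 89.7 CPM in the group of 146 members led by CLSTN2 and at 31.7 CPM in the other members. NKX2-1 was found in 3 members at D24 and 13 at D26, against 0 and 1 GNRH1-high neurons, and LHX8 in 2 and 7 members against 1 and 0. LHX6 was found in 0 members at D24 and 1 at D26. Against DLX-zero cells, 9 of 16 subpallial factors were at least 2-fold higher and 1 (ETV1) lower at D24, and 6 of 15 higher and 2 (ONECUT1 and ONECUT2) lower at D26, beside 1.85% higher and 3.92% lower of all genes at D24 and 1.54% and 2.6% at D26.

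Of 15 interneuron subtype markers, 3 reached 50 CPM on each day and 0 were 2-fold apart from GNRH1-high neurons. NPY, VIP and PVALB had 0 UMIs in members on both days, where the floor of 3 UMIs over the class is 2.48 CPM at D24 and 0.527 CPM at D26. Transcription factors linked to the GnRH promoter or lineage showed 0 of 5 genes 2-fold apart on each day, and SIX6 had 0 UMIs in members. OTX2, a homeodomain factor of the forebrain and of the GnRH promoter, was at 3.31 against 21.9 CPM at D24 and at 10.9 against 14.4 CPM at D26, below the level that entered the count. Secretory granule genes (7 and 11 genes), neuropeptide precursors (2 and 2), receptors and channels (3 and 7) and stress genes (2 and 3) also gave 0. CHGB, which encodes a granule protein, was at 72.0 against 60.4 CPM at D24 and 127 against 117 CPM at D26.

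Of the neuron maturation genes, 14 and 15 reached the level, with 0 apart at D24 and NEFL lower at D26. Their median log2 ratio was -0.22 and -0.13 beside 0.01 over all genes. Of the migration and guidance genes, 7 and 11 reached it and SEMA3C was the 1 apart on each day, while CXCR4 had 0 UMIs in members. Of the progenitor genes, 9 and 8 reached it and DLL3, a Notch ligand of newborn neurons, was higher at D24 at 125 against 50.9 CPM. SOX2 was at 82.0 against 122 CPM. The glutamatergic list gave 0 of 2 and 0 of 5 apart from GNRH1-high neurons, with TBR1 at 35.6 against 33.8 and 72.6 against 50.9 CPM. These are the counts set against the 0.496% and 0.458% of all genes at D24 and 0.0935% and 0.156% at D26, and with so few genes past the level nothing is read from them about a list.

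Markers of other cells that the dish could hold were summed in members. The 17 genes of pluripotent, endothelial, mesenchymal, epithelial and glial cells summed to 29.8 CPM at D24 and 26.7 CPM at D26, against 18.3 and 14.6 CPM in GNRH1-high neurons and 31.7 and 25.4 CPM in DLX-zero cells, with SOX10, GFAP and AQP4 at 0 UMIs on both days. The 12 cell cycle genes summed to 80.3 and 118 CPM against 88.2 and 42.1 CPM, and at D26 a single member held 95.5% of the TOP2A UMIs and a single member 84.8% of the MKI67 UMIs. The multiciliated and p53 genes summed to 46.4 and 49.0 CPM against 40.1 and 44.1 CPM. The genes listed for cells marked by Iroquois homeobox (IRX) genes summed to 134 and 69.2 CPM against 48.1 and 31.1 CPM, and to 228 and 126 CPM in DLX-zero cells. CRABP1, a retinoic acid-binding protein, was at 53.8 against 16.3 CPM at D24 and 20.6 against 9.50 CPM at D26. In the 121 DLX-positive cells led by NR2F2, IRX3 was at 16.4 and IRX5 at 22.4 CPM, against 0.597 and 1.09 CPM in the other DLX-positive cells. IRX1 and CRABP1 were not higher there. Ribosomal protein genes took 24.2% and 16.7% of the members' UMIs, 22.3% and 14.5% of those of GNRH1-high neurons and 19.7% and 14.4% in DLX-zero cells. The part of doublets, of ribosomal content or of these marker levels in the differences was not tested.

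More genes were 2-fold apart between members of D26 and D24 than between members and GNRH1-high neurons on either day. The 2 counts are not alike, since the first also holds any difference between the libraries. Members of the 2 days also lay in different clusters, with 83.7% at D24 and 3.28% at D26 in the CLIC1 cluster. Of 3186 genes, 231 (7.25%) were at least 2-fold higher at D26 and 33 (1.04%) at least 2-fold lower, with a median log2 ratio of 0.28. SYP, the synaptic vesicle protein synaptophysin, went from 26.5 to 125 CPM. RASD1 went from 42.2 to 231 CPM in members and from 95.8 to 223 CPM in GNRH1-high neurons, so that it ended at much the same level in both. PPM1K, SH3BP5, NSG2, ARG2, ARHGEF12, PCLO and ANK3 followed, with log2 ratios of 1.56 to 1.75.

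Among named genes of at least 100 CPM on 1 of the days, the largest log2 ratios in the other direction were those of PCP4, GNG5, CLIC1 and MDK. CD99, below that level, went from 50.5 to 6.50 CPM. PCP4 went from 157 to 25.7 CPM, GNG5 from 296 to 49.7 CPM, CLIC1 from 231 to 41.3 CPM and the growth factor MDK (midkine) from 899 to 249 CPM. DLL3 and IGFBPL1 went from 125 to 46.6 and from 166 to 62.7 CPM. NKAIN4, TMEM256, C12orf75 and IFI27L2 completed the 10 leading genes. All 20 leading genes moved in the same direction in GNRH1-high neurons, which come from the same 2 libraries; PCP4 and GNG5 had log2 ratios of -2.61 and -2.57 in members and -2.71 and -3.13 in GNRH1-high neurons.

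Among listed genes, 4 of 16 maturation genes were at least 2-fold higher at D26 in members (MAPT, SYP and GRIA2 among them) and 0 lower, beside 7.25% higher and 1.04% lower of all genes and a median log2 ratio of 0.28. Of 7 receptor and channel genes 3 were higher (GABRA2, GRIA2 and SCN2A), and of 3 interneuron markers RELN and TAC1. TAC1, the precursor of substance P, went from 97.7 to 212 CPM, and 1 cell held 32.2% of the 118 TAC1 UMIs of D24 members. Of the glutamatergic list 4 of 6 were higher, TBR1, PPP1R17, GABRA2 and SAMD3, which are also the leading genes of the cluster with high doublet scores. GAD2 (330 and 266 CPM) and SLC32A1 (46.4 and 61.3 CPM) stayed within 2-fold.

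The same limits found 752 cells at D22 (7.88% of 9539), when only 6 cells passed the GNRH1-high limit. In these cells GAD2 was at 41.2 CPM, STMN2 at 634 CPM, DLL3 at 857 CPM, HES6 at 766 CPM and TOP2A at 450 CPM, and NR2F2 at 12.9 CPM. In members of D24, DLL3 was at 125 CPM and TOP2A had 1 UMI. The D22 values are a description, and these cells entered no count of genes.

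Gene positions were taken from the GENCODE annotation of GRCh38, the build named for the files. NR2F2 is a gene of the plus strand at chr15:96325938-96340263 and NR2F1 one at chr5:93583222-93594611. Each overlaps an antisense gene on the opposite strand, NR2F2-AS1 and NR2F1-AS1, and whether the counting used strand is not given in the sources used here. SEMA3C lies on the minus strand at chr7:80742538-80922359. FGF3 (chr11:69809968-69819416) and FGF19 (chr11:69698238-69704022) are neighbours on the minus strand of chromosome 11, with 105945 bases between them. GAD2 lies at chr10:26216665-26304558.

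Start site windows of 250 bases before to 50 after the start were read from RefSeq on GRCh38.p14 and searched for TAATTA, the core letters bound by many homeodomain proteins, and for AGGTCA on either strand, the nuclear receptor half-site. TAATTA is its own reverse complement and was found in 4.84% of all 35116 windows, and AGGTCA in 13.8%. Of the 12 genes that led over DLX-zero cells, 8 had windows, 17 in all, and TAATTA was found in 2 of these windows, in TAC1 and MEF2C, and AGGTCA in 1, another window of MEF2C. The 7 windows of NR2F2, NR2F1, SEMA3C and FGF3 held neither motif. The TAC1 window (chr7:97731836-97732135, plus strand) is shown because it holds TAATTA, in capitals, and the first NR2F1 window (chr5:93582972-93583271, plus strand) because NR2F1 was among the genes most set apart from GNRH1-high neurons. A match in these letters is a description of the sequence and not a binding site.
TAC1: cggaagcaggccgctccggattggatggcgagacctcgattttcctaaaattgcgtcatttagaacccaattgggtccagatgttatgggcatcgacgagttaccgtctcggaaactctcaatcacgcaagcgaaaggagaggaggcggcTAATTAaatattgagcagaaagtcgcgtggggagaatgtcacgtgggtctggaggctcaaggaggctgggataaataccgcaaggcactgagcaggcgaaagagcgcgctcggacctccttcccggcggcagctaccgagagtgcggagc
NR2F1: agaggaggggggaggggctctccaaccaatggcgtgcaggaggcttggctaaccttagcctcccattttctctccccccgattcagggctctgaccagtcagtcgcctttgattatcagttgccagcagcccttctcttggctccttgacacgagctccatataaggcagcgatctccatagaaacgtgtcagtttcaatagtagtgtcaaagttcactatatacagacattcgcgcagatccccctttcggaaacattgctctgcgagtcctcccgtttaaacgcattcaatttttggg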

How the data were processed

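Per the labels and the study's methods, single cells of the culture were dissociated with papain and sequenced as 10x Genomics 3′ libraries, 1 each at D22, D24 and D26. The authors deposited filtered matrices of UMI counts per gene and barcode, made with Cell Ranger 3.1 on GRCh38. The counts are whole numbers and not normalized; whether counting used strand is not given in the sources used here. The D24 and D26 libraries held 9905 and 12171 barcodes, of which 9110 and 11060 passed the limits of 1500 UMIs, 1000 genes and 20% mitochondrial UMIs.

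The members and gene lists were chosen with earlier results of these data known. UMIs were summed over the cells of a class and scaled to CPM, with exact 95% Poisson intervals, and ratios with exact binomial intervals. A count of 0 was set to a floor of 3 UMIs over the class in a ratio. A gene was called 2-fold apart where 1 class reached 50 CPM and 1 class had over 3 UMIs. With 1 library per day there was no replicate and no test. Genes named in the text were those of the lists, the first 12 in each direction that were 2-fold apart on both days, the 10 largest changes between days among genes of at least 100 CPM, and the 10 leading genes of each sub-cluster; others are said to have been chosen after their values were seen. Of the list symbols, 3 had no row (CXCR7, NELF and PREP1).

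To set shares of cells with a UMI side by side, 1500 UMIs were also drawn at random from each cell. Doublets were scored with Scrublet in scanpy 1.11.5 (expected share 6%). Its automatic threshold marked 0 cells at D24 and 1 at D26, so a score of 0.25 was used as a description, and no cell was removed for it in the values given. Clusters used 2000 variable genes, 30 components, 20 neighbours and Leiden resolution 0.5 (leidenalg 0.10.2). On simulated counts of the D24 and D26 comparisons with GNRH1-high neurons (2435 and 3071 genes), the intervals held the true ratio of changed genes in 95.97% and 95.1% of cases. The simulated class sums were Poisson draws without differences between cells, so shares near 95% follow from the set-up. They check the calculation only and not the spread of these data. Python 3.11.15, numpy 2.4.6, scipy 1.17.1 and pandas 2.3.3 were used. Alternatives covered the cell filters, doublets, the DLX and GNRH1 limits, the totals, the weight of cells, depth and the floor. Results for some genes are not reported here.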

Additional observations from a re-analysis of the deposited data

How the results depend on the processing

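Alternatives were run for the share of members, the counts of genes 2-fold apart and the log2 ratios of named genes over GNRH1-high neurons. None was run for levels along GNRH1, for genes found in the same cells or for values by cluster. Of 638 such log2 ratios, 583 moved by less than the counting error of the value and 55 by more. Of 418 values of genes 2-fold apart 405 were still 2-fold apart and 418 kept their direction. These genes were picked as 2-fold apart in the same cells, which the alternatives largely reuse. The counts thus show how far the values depend on the settings and add no support to them. NR2F2 ranged from 4.13 to 5.49 at D24 and from 2.90 to 3.54 at D26, and FGF3 at D26 from -1.28 to -0.93, which is short of 2-fold when every cell weighed the same and, at -0.97, with at least 6 DLX UMIs.

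The share of cells that were members moved with its limits. It was 4.53% at D26 without high doublet scores, 1.04% at D24 and 4.15% at D26 with at least 6 DLX UMIs, and 1.17% and 2.27% with GNRH1 at 0 UMIs. In 2 settings chosen after seeing the data it was 4.14% at D26 without cells of at least 3 glutamatergic marker UMIs and 4.03% without the clusters of mostly high doublet scores.

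The number of genes 2-fold apart from GNRH1-high neurons, 25 at D24 and 8 at D26, was 42 at D24 with at least 6 DLX UMIs, 45 and 21 with GNRH1 at 0 UMIs, 13 at D26 in cells of 5000 to 15000 UMIs, and 40 at D24 without the clusters of mostly high doublet scores. With a floor of 200 CPM it was 2 and 1, and with no floor 1573 and 1520. Against DLX-zero cells the counts of 162 and 140 became 35 and 30 at 200 CPM and 7534 and 4755 with no floor, and between days 264 became 42 and 3634. The low counts at 200 CPM follow from fewer genes tested, and the causes of the other moves were not tested. No paired analysis was possible because each day was 1 library, so the days share only 1 replicate number, and the classes were compared within the library of each day.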
